A study of Mus musculus with 6 samples.

Results

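The 10 Notch pathway genes described here were the 4 receptors Notch1, Notch2, Notch3 and Notch4, the 3 ligands Jag1, Jag2 and Dll1, and the 3 target genes Hes1, Hey1 and Heyl. They were taken by gene symbol, from a list drawn up with earlier results of these data known, and made up 10 of the 52323 genes in the count table. RNA-seq was performed on damaged hepatocytes (dHeps), which are liver cells isolated by collagenase perfusion from adult C57BL/6 mice with chronic carbon tetrachloride (CCl4) injury and genotype AAV-TBG-Cre:Rosa-LSL-tdTomato. In these mice a virus carries the Cre recombinase under the liver-specific TBG promoter, so that hepatocytes and their descendants are marked by tdTomato. The DMSO group received solvent for 16 days in serum-free Hepatocyte Maintenance Medium. The 3C group received the protein kinase D inhibitor CID755673 at 50 µM, the ROCK inhibitor GSK429286A at 2 µM and ETC-1002, named in the study as an AMPK activator, at 5 µM. The 5C group received the same 3 compounds with the plant glycoside salidroside at 5 µM and the adenylate cyclase activator forskolin at 2 µM. All 3 groups shared the CCl4 injury, the genotype, the medium and the 16 days, and each had 2 libraries. The study's methods state in general that its n counts biological replicates, but neither they nor the labels say which animals stand behind each of these libraries. If those of a group share a source, p-values measure only the spread between these samples, which may be technical.

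Notch receptors are membrane proteins that are cut when a ligand of the Jagged or Delta-like family on a neighbouring cell binds them. The freed intracellular part enters the nucleus, joins the DNA-binding protein RBPJ and a Mastermind coactivator, and switches on genes of the HES and HEY families of transcriptional repressors. In the liver the pathway is known for the formation of bile ducts, for the biliary turn that hepatocytes can take after injury, and for the vessel wall, where Notch4 and Dll4 belong to endothelial cells and Notch3 to the mural cells around them.

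The 6 libraries held 65916573 to 69245895 estimated counts, and 19135 genes passed the filter on low counts, among them all 10 genes of this family. Of the cell type markers examined, all 10 hepatocyte markers (Alb, Hnf4a and others) were detected in every group. Their summed level was 2573 to 2924 CPM (counts scaled to a library total of 1000000) in DMSO, 12790 to 13430 CPM in 3C and 12140 to 17440 CPM in 5C. The 10 macrophage markers summed to 10470 to 11210 CPM in DMSO, 3613 to 3632 CPM in 3C and 2344 to 2408 CPM in 5C. In the DMSO libraries, Lyz2 alone held 6024 and 6137 CPM of this sum, and Alb 1357 and 1182 CPM of the hepatocyte sum. CPM are not scaled for gene length, so sums of different lists are not ranked against each other. The libraries labelled as hepatocytes thus held transcripts of macrophage markers in all groups. In such bulk samples, fewer cells of a type and less RNA per cell cannot be told apart. Below, a gene rose or fell if its Benjamini-Hochberg adjusted p over all 19135 genes was under 0.05 in the quasi-likelihood test of edgeR, CPM values are given as mean ± SD (n = 2), and SE is the standard error of the log2 fold change. Intervals are 95% confidence intervals of single genes and are not adjusted for the number of genes tested. Libraries of different groups often did not overlap, so a lack of overlap does not by itself set a gene apart. Of the 19135 genes tested, 12076 showed no overlap in 5C against DMSO, 11739 in 3C against DMSO and 11091 in 5C against 3C.

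5C changed most of the family. Against DMSO, 8 of the 10 genes passed the test, while 28.7% of all genes tested passed it. The 6 that rose were Notch3, Notch4, Jag2, Dll1, Hes1 and Heyl, beside 15.6% of all genes, and the 2 that fell were Notch1 and Notch2, beside 13.1%. The median log2 fold change of the 10 genes was 1.18, and that of all genes tested was 0.0041.

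The genes that changed in 3C all rose. Against DMSO, 7 of the 10 genes passed, beside 24.5% of all genes. These 7 were Notch3, Notch4, Jag1, Jag2, Dll1, Hes1 and Heyl. Over all genes 12.7% rose and 11.8% fell. Notch1, Notch2 and Hey1 did not pass. The median log2 fold change was 1.11, and that of all genes was 0.0088.

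The addition of salidroside and forskolin was read from 5C against 3C. Here 5 of the 10 genes passed, beside 12.7% of all genes: Notch4 and Dll1 were higher in 5C (7.33% of all genes were), and Notch1, Notch3 and Jag1 were lower (5.33% of all genes were). The median log2 fold change was 0.0038, and that of all genes was -0.011. The comparisons of 3C and of 5C with DMSO share the DMSO libraries, and those of 5C with DMSO and with 3C share the 5C libraries. Where an absolute log2 fold change above 1 was also asked for, 5 of the 10 genes passed in 5C against DMSO (11.7% of all genes did), 5 in 3C against DMSO (9.45%) and 3 in 5C against 3C (3.01%).

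**Figure D1:**
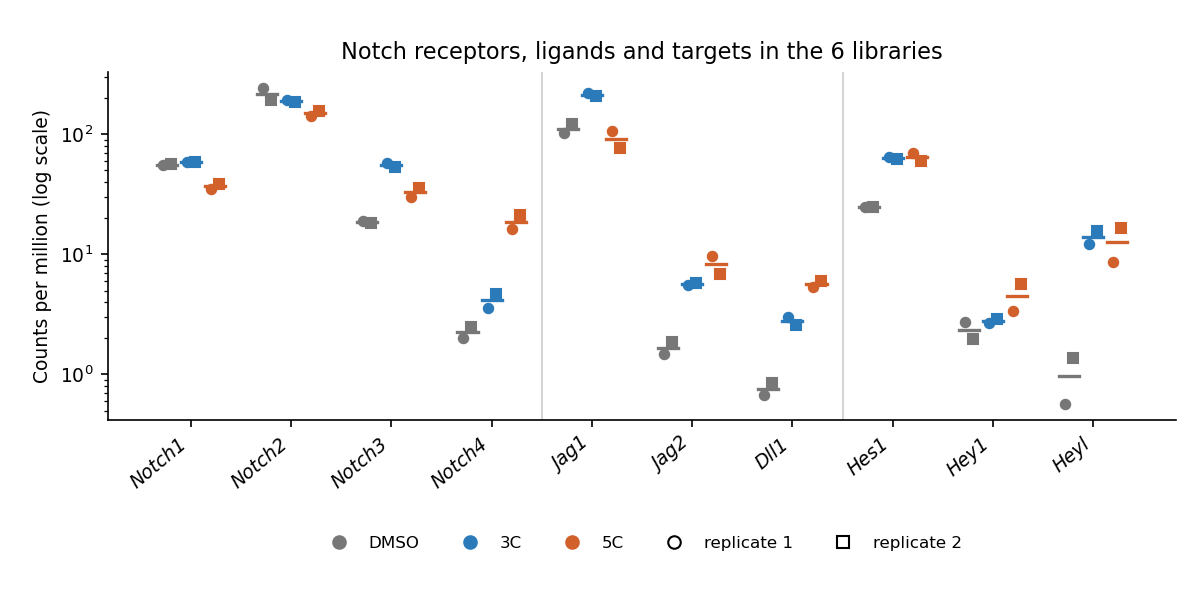
Level of each of the 10 genes in the 6 libraries, in CPM on a log axis, with a circle for replicate 1, a square for replicate 2 and a bar for the mean of the group. Hes1 and Heyl sit higher in both 3C and 5C than in DMSO, Notch4 is highest in 5C (16.36 and 21.08 CPM), and Jag1 is highest in 3C (219.4 and 208.4 CPM).

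**Figure D2:**
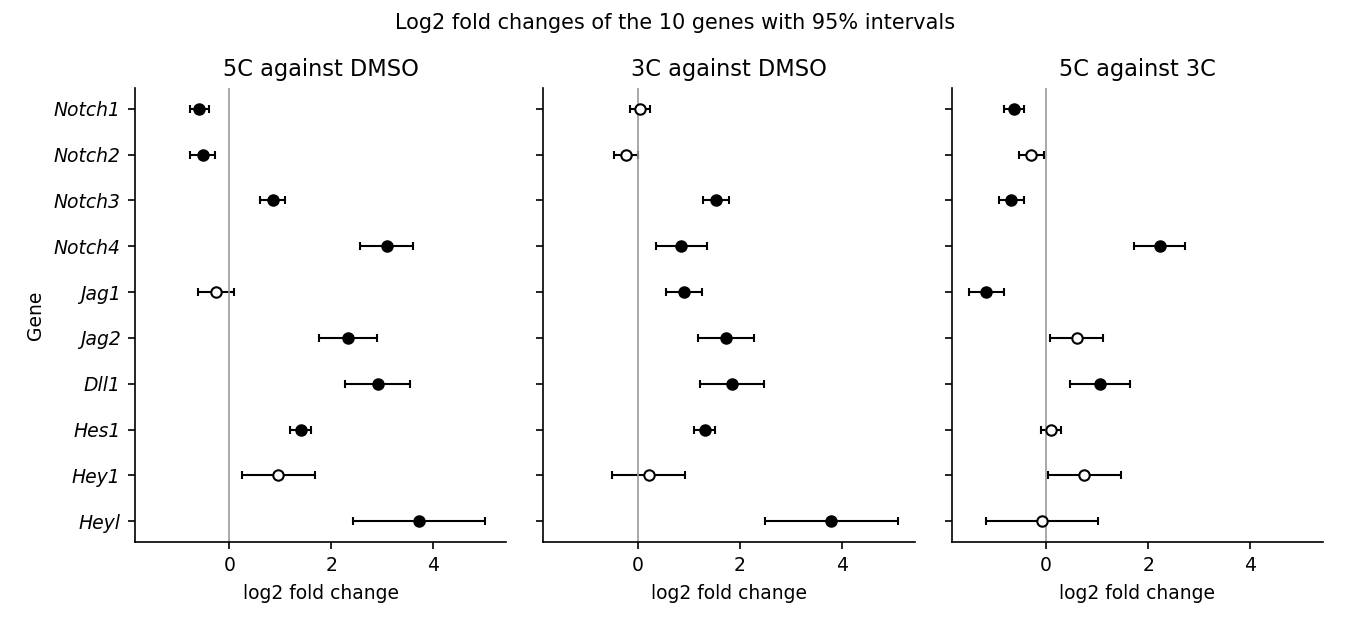
Log2 fold change of the 10 genes in the 3 comparisons, with 95% confidence intervals as horizontal lines and filled symbols for an adjusted p under 0.05. The largest values are those of Heyl against DMSO (3.80 in 3C, 3.72 in 5C), and the next is that of Notch4 in 5C (3.08).

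Among the receptors, Notch4 showed the widest change. Notch4 (ENSMUSG00000015468, GRCm39 chr17:34783220-34807477, plus strand), the receptor of endothelial cells, was at 2.01 and 2.473 CPM in the DMSO libraries, at 3.578 and 4.72 CPM in 3C and at 16.36 and 21.08 CPM in 5C. No library of one group overlapped with those of another. In 5C it rose 8.46-fold against DMSO (log2 fold change 3.08, SE 0.2319, adjusted p = 1.46e-05) and 4.68-fold against 3C (2.23, SE 0.2218, adjusted p = 0.000542). In 3C it rose 1.81-fold against DMSO (0.86, SE 0.2237, adjusted p = 0.0219). This last call was lost without DMSO replicate 1 (adjusted p = 0.111), without 3C replicate 2 (adjusted p = 0.158), in a fit to the DMSO and 3C libraries alone (adjusted p = 0.061), with limma on log2(FPKM + 1) (adjusted p = 0.382) and on log2(FPKM + 0.1) (adjusted p = 0.27), and with a limit of 1 on the log2 fold change.

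Notch3 followed another order. Notch3 (ENSMUSG00000038146, chr17:32339794-32385893, minus strand), the receptor of smooth muscle cells and pericytes, was at 18.87 and 18.37 CPM in DMSO, 57.1 and 52.92 CPM in 3C and 30.29 and 35.93 CPM in 5C. The 3 groups did not overlap, and 3C was the highest. It rose 2.89-fold in 3C (1.53, SE 0.1106, adjusted p = 1.71e-05) and 1.8-fold in 5C (0.85, SE 0.1096, adjusted p = 0.000387), and it was lower in 5C than in 3C (-0.68, SE 0.108, adjusted p = 0.0041). Notch3 and Notch4 thus moved in opposite directions between the cocktails.

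The receptors with the most RNA in DMSO, Notch2 and Notch1, fell in 5C. Notch1 (ENSMUSG00000026923, chr2:26347915-26406675, minus strand), a receptor used in many tissues, was at 55.72 and 56.21 CPM in DMSO, 58.7 and 59.07 CPM in 3C and 34.68 and 38.85 CPM in 5C. The 5C libraries were the low ones: Notch1 fell by 0.59 on the log2 scale against DMSO (SE 0.0859, adjusted p = 0.000851) and by 0.63 against 3C (SE 0.0859, adjusted p = 0.00223). Between 3C and DMSO the log2 fold change was 0.04, with a 95% confidence interval of -0.15 to 0.23 (adjusted p = 0.795).

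Notch2 (ENSMUSG00000027878, chr3:97920800-98057677, plus strand), the receptor whose loss, like that of its ligand JAG1, causes the bile duct disorder Alagille syndrome, was at 243.4 and 192.1 CPM in DMSO, 191.7 and 186.2 CPM in 3C and 142.1 and 156.2 CPM in 5C. It fell by 0.53 on the log2 scale in 5C against DMSO (SE 0.1059, adjusted p = 0.00529). Neither 3C against DMSO (log2 fold change -0.24, 95% confidence interval -0.475 to 0.0039, adjusted p = 0.151) nor 5C against 3C (-0.29, interval -0.53 to -0.05, adjusted p = 0.121) passed the test. The DMSO libraries were far apart, and without DMSO replicate 2 the first of these passed (-0.38, adjusted p = 0.0146). The second passed without DMSO replicate 1 (adjusted p = 0.0321), without DMSO replicate 2 (adjusted p = 0.0283) and in a fit to the 3C and 5C libraries alone (adjusted p = 0.0295).

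Levels of different genes were compared per length, in the deposited FPKM. Of the summed FPKM of the 4 receptors, Notch2 took 72.59% and 67.92% in the DMSO libraries, 56.67% and 56.31% in 3C and 57.59% and 55.56% in 5C. The share of Notch3 was 7.441% and 8.484% in DMSO, 22.19% and 21.08% in 3C and 16.12% and 16.81% in 5C. The share of Notch4 was 1.286% and 1.646% in DMSO, 1.722% and 2.512% in 3C and 10.79% and 12.0% in 5C. Notch2 was thus the receptor with the most RNA in every library, and the shares of Notch3 and Notch4 in all cocktail libraries lay above those in DMSO. The sum itself had means of 26.84, 28.53 and 22.69 FPKM in DMSO, 3C and 5C.

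**Figure D3:**
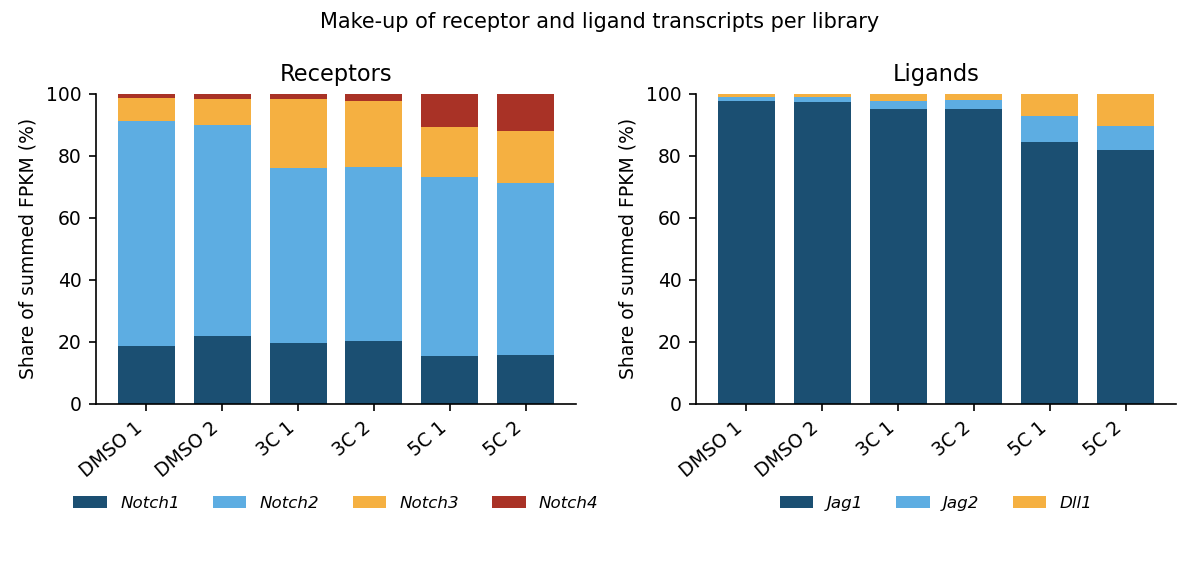
Share of each gene in the summed FPKM of the 4 receptors and of the 3 ligands, in percent, with 1 bar per library in the order DMSO, 3C and 5C. Notch4 takes 10.79% and 12.0% of the receptor sum in 5C and at most 2.512% in the other libraries, and Jag1 takes 81.72% or more of the ligand sum in every library.

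The stretches upstream of Notch3 and Notch4 are shown because these receptors moved in opposite directions between 3C and 5C. They come from the RefSeq promoter table (250 bases before to 50 after a gene's start, built on GRCm38.p6) and were placed on GRCm39 by exact match. Bases inside annotated exons were left out. Capitals mark matches on either strand to CACNAG, the N box that HES repressors bind. The Notch3 stretch is chr17:32385894-32386114, minus strand, with 67.0% G and C, and the Notch4 stretch is chr17:34783019-34783219, plus strand, with 57.2%.
Notch3: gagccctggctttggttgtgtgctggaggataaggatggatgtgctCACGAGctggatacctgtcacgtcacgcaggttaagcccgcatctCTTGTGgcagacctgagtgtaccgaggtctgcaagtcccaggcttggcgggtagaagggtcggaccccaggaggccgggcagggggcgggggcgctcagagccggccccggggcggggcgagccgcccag
Notch4: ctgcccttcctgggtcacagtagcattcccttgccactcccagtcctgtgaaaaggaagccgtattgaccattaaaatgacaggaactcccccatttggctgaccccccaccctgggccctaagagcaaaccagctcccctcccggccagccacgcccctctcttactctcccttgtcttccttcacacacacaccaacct
The Notch3 matches begin 204 and 159 bases before the start, and the Notch4 stretch has none. The Notch3 stretch has 15 CpG dinucleotides and the Notch4 stretch 3. The table held promoters of 7 of the 10 genes, without Hes1, Hey1 and Heyl. The core motif of RBPJ, TGGGAA, was in 0 of the 8 promoters of these 7 genes, all receptors or ligands. It was in 25.6% of the 32851 promoters of that length in the table. The longer GTGGGAA, which contains it, was in 0 of the 8 and in 6.38% of all. Of the 6 promoters held for other HES and HEY genes and Nrarp, 3 had both motifs (Hes5, Hes7 and Hey2). CACNAG was in 4 of the 8 (Dll1, Notch1, Notch2 and Notch3) and in 42.5% of all promoters.

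The ligands split by abundance. Jag1 (ENSMUSG00000027276, chr2:136923373-136958693, minus strand), the ligand of bile duct formation, was at 102.2 and 120.6 CPM in DMSO, 219.4 and 208.4 CPM in 3C and 106.4 and 77.42 CPM in 5C. The 3C libraries stood alone at the top, while the DMSO and 5C libraries overlapped. Jag1 rose 1.88-fold in 3C (log2 fold change 0.91, SE 0.1472, adjusted p = 0.00379) and was 2.25-fold lower in 5C than in 3C (-1.17, SE 0.1481, adjusted p = 0.00308). In 5C against DMSO the log2 fold change was -0.26, with a 95% confidence interval of -0.61 to 0.08 (adjusted p = 0.246), and without 5C replicate 1 it passed (-0.49, adjusted p = 0.0227).

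Jag2 and Dll1, which had little RNA in DMSO, rose in both cocktails. Jag2 (ENSMUSG00000002799, chr12:112871421-112893437, minus strand), the second Jagged ligand, was at 1.474 and 1.866 CPM in DMSO, 5.601 and 5.731 CPM in 3C and 9.715 and 6.874 CPM in 5C. It rose 3.31-fold in 3C (1.73, SE 0.2439, adjusted p = 0.000824) and 5.02-fold in 5C (2.33, SE 0.2468, adjusted p = 0.00012). The groups did not overlap, but 5C against 3C did not pass (0.60, interval 0.07 to 1.12, adjusted p = 0.144).

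Dll1 (ENSMUSG00000014773, chr17:15587276-15597134, minus strand), a Delta-like ligand, was at 0.67 and 0.8496 CPM in DMSO, 3.035 and 2.58 CPM in 3C and 5.343 and 5.95 CPM in 5C. It stepped up from group to group without overlap. It rose 3.6-fold in 3C (1.85, SE 0.2739, adjusted p = 0.0011) and 7.51-fold in 5C (2.91, SE 0.2796, adjusted p = 6.41e-05), and was 2.08-fold higher in 5C than in 3C (1.06, SE 0.2568, adjusted p = 0.0274). The last call was lost when either 3C replicate or either 5C replicate was left out (adjusted p from 0.0872 to 0.188) and with limma on log2(FPKM + 0.1) (adjusted p = 0.121).

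Per length, Jag1 held 97.47% and 97.18% of the summed FPKM of the 3 ligands in DMSO, 94.94% and 94.93% in 3C and 84.35% and 81.72% in 5C. The share of Dll1 was 0.9592% and 1.066% in DMSO, 2.405% and 2.094% in 3C and 7.244% and 10.39% in 5C. The share of Jag2 was 1.568% and 1.749%, 2.655% and 2.973%, and 8.405% and 7.888% in the same order. The sum itself was 18.6 FPKM in DMSO, 36.12 FPKM in 3C and 17.86 FPKM in 5C (means). Jag2 and Dll1 together took a larger part of the ligand sum in both 5C libraries than in any other library. The sum leaves out Dll4, described below. Dll4 was at 0.1665 and 0.047 FPKM in DMSO, 0.1489 and 0.5999 FPKM in 3C and 2.317 and 3.256 FPKM in 5C.

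The stretch upstream of Dll1 (chr17:15597195-15597444, minus strand, 56.0% G and C, 13 CpG) is shown because Dll1 had the largest rise in 5C of these 3 ligands. It holds no match to the motifs searched, and the single CACNAG of this promoter lies after the start.
Dll1: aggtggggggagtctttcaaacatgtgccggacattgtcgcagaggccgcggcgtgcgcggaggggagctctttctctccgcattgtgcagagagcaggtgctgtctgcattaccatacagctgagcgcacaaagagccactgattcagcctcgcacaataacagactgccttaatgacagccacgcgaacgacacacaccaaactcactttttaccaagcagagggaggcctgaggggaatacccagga

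Of the target genes, Hes1 and Heyl rose in both cocktails. Hes1 (ENSMUSG00000022528, chr16:29882134-29886643, plus strand), a repressor that is a direct target of Notch in many tissues, was at 24.69 and 24.97 CPM in DMSO, 64.06 and 61.84 CPM in 3C and 69.76 and 59.45 CPM in 5C. All 4 cocktail libraries lay above both DMSO libraries. Hes1 rose 2.48-fold in 3C (1.31, SE 0.0893, adjusted p = 1.3e-05) and 2.63-fold in 5C (1.40, SE 0.0894, adjusted p = 5.82e-06). The 3C and 5C libraries overlapped, and their log2 fold change was 0.09, with an interval of -0.11 to 0.28 (adjusted p = 0.628).

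Heyl (ENSMUSG00000032744, chr4:123127349-123143682, plus strand), a HEY family repressor known from vascular smooth muscle, was at 0.5658 and 1.381 CPM in DMSO, 12.24 and 15.52 CPM in 3C and 8.571 and 16.72 CPM in 5C. It had the largest fold of the 10 genes in both cocktails, 13.9-fold in 3C (3.80, SE 0.5275, adjusted p = 0.00354) and 13.2-fold in 5C (3.72, SE 0.5264, adjusted p = 0.00327). Replicates of DMSO and of 5C were far apart. Without DMSO replicate 2, which held more Heyl, the log2 fold changes were 4.60 in 3C (adjusted p = 0.00418) and 4.51 in 5C (adjusted p = 0.00376), and without DMSO replicate 1 they were 3.28 (adjusted p = 0.00862) and 3.21 (adjusted p = 0.00801). Between 5C and 3C the log2 fold change was -0.08, with an interval of -1.19 to 1.03 (adjusted p = 0.95), which is too wide to set the cocktails apart or to place them together.

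Hey1 (ENSMUSG00000040289, chr3:8726956-8732385, minus strand), a HEY repressor of endothelial and other cells, was at 2.725 and 1.957 CPM in DMSO, 2.657 and 2.888 CPM in 3C and 3.345 and 5.632 CPM in 5C. Both 5C libraries lay above both DMSO libraries, while the 3C libraries overlapped with them. No comparison passed the test: the log2 fold change was 0.96 in 5C (interval 0.24 to 1.68, adjusted p = 0.0507), 0.21 in 3C (interval -0.51 to 0.94, adjusted p = 0.707) and 0.75 between 5C and 3C (interval 0.03 to 1.47, adjusted p = 0.181). The value in 5C passed with DESeq2 (adjusted p = 0.0328), with a filter of 10 counts in every library (adjusted p = 0.0359), with counts divided by 4 (adjusted p = 0.0352) and without 5C replicate 1 (1.30, adjusted p = 0.0255).

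In order of mean FPKM, DMSO libraries ran from Notch2 (18.93 ± 3.773) and Jag1 (18.1 ± 1.476), whose libraries overlapped, through Hes1 (15.89 ± 0.2692), Notch1, Notch3, Hey1, Notch4 and Jag2 to Heyl (0.1911) and Dll1 (0.1889), which overlapped too. In 3C, Hes1 was first at 39.68 FPKM, ahead of Jag1 at 34.29 and Notch2 at 16.12, and Notch4 was last at 0.6038 FPKM. In 5C, Hes1 was first at 40.85 ± 5.843 FPKM, and Jag1 (14.87 ± 3.585) overlapped with Notch2 (12.83). The 5 genes from Notch4 (2.593 FPKM) down through Heyl, Hey1 and Dll1 to Jag2 (1.462 FPKM) each overlapped with the next in 5C. Hes1, behind Notch2 and Jag1 in DMSO, was thus first in both cocktails, and Heyl, at 0.1911 FPKM in DMSO, was at 2.808 FPKM in 3C, where its libraries overlapped with those of no neighbour, and at 2.54 ± 1.15 FPKM in 5C.

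Of the counts, exons of 9 of the 10 genes overlap with exons of another annotated gene, and whether strand was used in counting is not given in the sources used here, so such reads cannot be assigned with certainty. The partner lies on the opposite strand for Notch1 (0610009E02Rik and Gm13568), Notch3 (Gm17276), Notch4 (Gm20462), Jag1 (Gm74836), Dll1 (Fam120b and Gm64896), Hes1 (Gm60905) and Hey1 (Gm64520), and on the same strand for Notch2 (Gm42820) and Jag2 (Mir6941). Heyl has none. Notch2 shared 3.84% of its 50-base words with other genes, Notch3 0.0871% and the other 8 genes 0%.

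The rest of the pathway was followed through 58 further genes, of which 55 could be tested. In 5C against DMSO, 25 passed (11 rose and 14 fell), which is 45.5% of those tested beside 28.7% of all genes. In 3C against DMSO 23 passed (8 rose and 15 fell), or 41.8% beside 24.5%. In 5C against 3C, 6 passed (3 higher and 3 lower), or 10.9% beside 12.7%. Leaving out 1 library lowered the first count to as few as 14 (5C replicate 1), the next to 10 (3C replicate 1) and the last to 2 (3C replicate 2). Their median log2 fold changes were -0.0374, -0.0954 and 0.032 in this order, beside 0.0041, 0.0088 and -0.011 over all genes. The genes not tested were Dll3, Hes5 and Hes3, the last of which had 0 counts in all 6 libraries, which allows up to 0.0433 to 0.0455 CPM per library (3 counts, counting error only).

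The counts by role that follow stand beside those of all genes. Of all genes, 15.6% rose and 13.1% fell in 5C, and 12.7% rose and 11.8% fell in 3C. Between the cocktails, 7.33% were higher in 5C and 5.33% lower. The lists are short, and several of their counts lie near these shares. Among the other ligands and their partners, 2 of 4 tested rose in 5C, 1 of 4 in 3C and 0 between the cocktails. Dll4, the Delta-like ligand of endothelial cells, was at 0.6849 and 0.2124 CPM in DMSO, 0.6341 and 2.492 CPM in 3C and 9.498 and 13.73 CPM in 5C. It rose 26.2-fold in 5C (4.71, SE 0.852, adjusted p = 0.0112). The values of 1.77 in 3C (adjusted p = 0.2) and 2.94 between 5C and 3C (adjusted p = 0.07) did not pass, and the 3C libraries overlapped with those of DMSO. Dlk2, a Delta-like protein without the receptor-binding domain of the ligands, rose in both cocktails, by 2.35 in 3C (adjusted p = 0.00578) and by 1.65 in 5C (adjusted p = 0.0267) on the log2 scale.

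Of the enzymes that glycosylate the receptors, 1 of 5 rose and 1 fell in 5C, 0 rose and 2 fell in 3C, and 0 passed between the cocktails. The 3 Fringe enzymes, which set how receptors answer to Jagged and Delta-like ligands, differed. Lfng was at 57.21 and 51.32 CPM in DMSO and between 24.04 and 26.99 CPM in all 4 cocktail libraries, and it fell by 1.10 in 3C (adjusted p = 4.87e-05) and by 1.07 in 5C (adjusted p = 4.35e-05) on the log2 scale. Mfng, with 0.6587 CPM in DMSO and 2.234 CPM in 5C, rose in 5C (1.78, adjusted p = 0.0322), and its value in 3C was 0.52 (adjusted p = 0.55). Rfng passed in no comparison (-0.16 in 5C, adjusted p = 0.427, and -0.06 in 3C, adjusted p = 0.805). Neurl1b, an E3 ligase for ligand uptake and 1 of 4 tested in that group, rose in 5C (1.04, adjusted p = 0.0357), where none of the other 3 passed.

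Of 10 genes for receptor cleavage, 1 rose and 4 fell in 5C, where 13.1% of all genes fell. In 3C 1 rose and 6 fell, where 11.8% of all genes fell, and between 5C and 3C 1 was higher and 0 were lower. Aph1c, a subunit of the gamma-secretase that frees the intracellular part, was at 18.02 and 21.21 CPM in DMSO, 10.98 and 9.923 CPM in 3C and 7.384 and 7.163 CPM in 5C, and it fell by 0.94 in 3C (adjusted p = 0.00117) and by 1.41 in 5C (adjusted p = 8.91e-05). Of 9 genes, namely Rbpj, the related Rbpjl and coactivators, 1 rose and 2 fell in each cocktail. Rbpj, the DNA-binding partner of all the receptors, was at 171.6 and 170.3 CPM in DMSO, 117.5 and 128.0 CPM in 3C and 105.0 and 113.2 CPM in 5C. It fell by 0.51 in 3C (adjusted p = 0.0011) and by 0.63 in 5C (adjusted p = 0.00026), and it is named although the rule for naming did not reach it. Maml3, a Mastermind coactivator, rose by 0.60 in 3C (adjusted p = 0.0183) and by 0.50 in 5C (adjusted p = 0.0345).

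Of 9 corepressors, 3 rose and 2 fell in 5C, and 3 rose and 1 fell in 3C. Of the Groucho-type corepressors, Tle2 was at 5.867 and 5.871 CPM in DMSO, 15.73 and 15.33 CPM in 3C and 10.51 and 9.228 CPM in 5C, and Tle4 was at means of 42.24, 30.18 and 19.98 CPM in the same order. Tle2 rose by 1.37 in 3C (adjusted p = 0.000135) and by 0.77 in 5C (adjusted p = 0.00325). Tle4 fell by 1.06 in 5C (adjusted p = 5.13e-05) and by 0.52 in 3C (adjusted p = 0.0041). Of 9 inhibitors and Deltex proteins, 1 rose and 5 fell in 5C and 0 rose and 4 fell in 3C. Among them, Dtx2 fell by 0.52 in 3C (adjusted p = 0.00722) and by 0.35 in 5C (adjusted p = 0.0398). Between 5C and 3C the 6 genes that passed were Psen2 (0.56), Maml2 (0.55) and Numbl (0.50), which were higher in 5C, and Tle2 (-0.60), Tle4 (-0.54) and Dtx4 (-0.49), which were lower (adjusted p from 0.00248 to 0.032).

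Among the remaining HES and HEY genes and the feedback gene Nrarp, 1 of 5 tested rose in 5C and 2 rose in 3C. Nrarp, which is switched on by Notch and promotes loss of the receptor's intracellular part, was at 1.161 and 0.6827 CPM in DMSO, 6.794 and 6.699 CPM in 3C and 6.226 and 9.084 CPM in 5C. It rose 7.15-fold in 3C (2.84, SE 0.309, adjusted p = 0.000176) and 8.42-fold in 5C (3.07, SE 0.311, adjusted p = 8.84e-05), and the cocktails did not differ past the threshold (0.24, adjusted p = 0.69). Like Hes1 and Heyl, but also like Notch3, Notch4, Jag2 and Dll1, it stood above both DMSO libraries in all 4 cocktail libraries. Its upstream stretch (chr2:25070520-25070769, plus strand, 61.2% G and C, 18 CpG) is shown because it rose in both cocktails. Capitals mark CACNAG matches that begin 179 and 79 bases before the start and, at 108 bases, CACGTG, the E box of class B, which 7.15% of all promoters hold and 0 of the 8 promoters of the family.
Nrarp: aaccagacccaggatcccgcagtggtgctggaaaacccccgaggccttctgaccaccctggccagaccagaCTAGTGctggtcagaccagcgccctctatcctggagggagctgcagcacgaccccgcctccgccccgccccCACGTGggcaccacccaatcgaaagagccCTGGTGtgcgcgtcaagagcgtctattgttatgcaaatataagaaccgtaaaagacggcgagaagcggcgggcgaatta

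**Figure D4:**
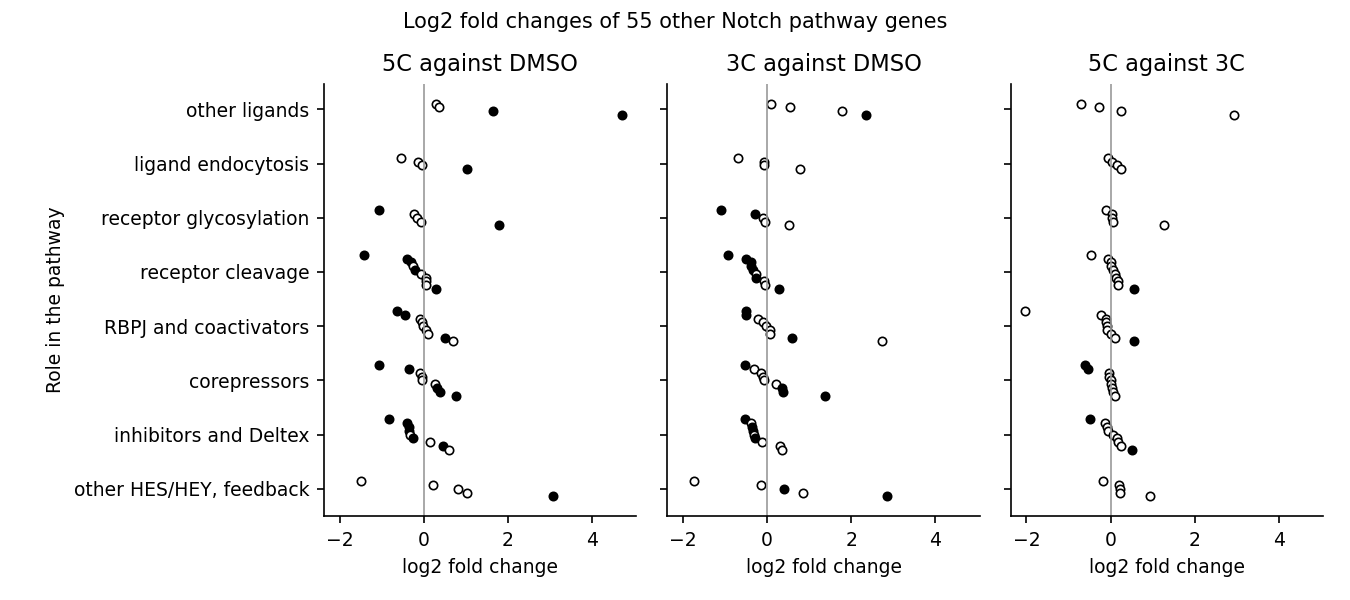
Log2 fold changes of the 55 other pathway genes tested, by role and comparison, with 1 point per gene and filled points for an adjusted p under 0.05. Dll4 (4.71) and Nrarp (3.07) lie farthest to the right in 5C against DMSO. Most cleavage, coactivator and corepressor genes lie nearer 0 there, although 5 of 10, 3 of 9 and 5 of 9 passed the test.

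Markers of other cell types moved with several of these genes. For the marker counts that follow, 15.6% of all genes rose and 13.1% fell in 5C, 12.7% rose and 11.8% fell in 3C, and 7.33% were higher and 5.33% lower in 5C than in 3C. Of 12 endothelial markers, 11 were tested, of which 9 rose and 1 (Vwf) fell in 5C, 7 rose and 1 fell in 3C, and 7 were higher and 0 lower in 5C than in 3C. Their summed level was 46.26 to 59.68 CPM in DMSO, 41.22 to 70.62 CPM in 3C and 142.5 to 226.0 CPM in 5C. Of this, Vwf alone held 25.03 and 38.35 CPM in DMSO, 6.975 and 9.777 CPM in 3C and 4.778 and 6.86 CPM in 5C. Its fall thus offset part of the rise of the other markers in the sum. Erg and Clec4g were at 0 in both DMSO libraries, and Clec4g in both 5C libraries. Cdh5, the cadherin of endothelial junctions, was at 1.251 and 1.062 CPM in DMSO, 6.447 and 14.89 CPM in 3C and 43.32 and 72.19 CPM in 5C. In both cocktails, replicate 2 had more Cdh5, Pecam1 and Tie1 than replicate 1, and it also had more Notch4, Dll4, Hey1 and Heyl. This order was not particular to endothelial markers. It was also seen in both cocktails for Notch1, the hepatocyte markers Alb and Apoa1 and the receptor gene Pdgfrb. The hepatocyte marker Apob did not share it in 3C. The part of endothelial RNA in the values of Notch4, Dll4 and Hey1 was not tested.

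**Figure D5:**
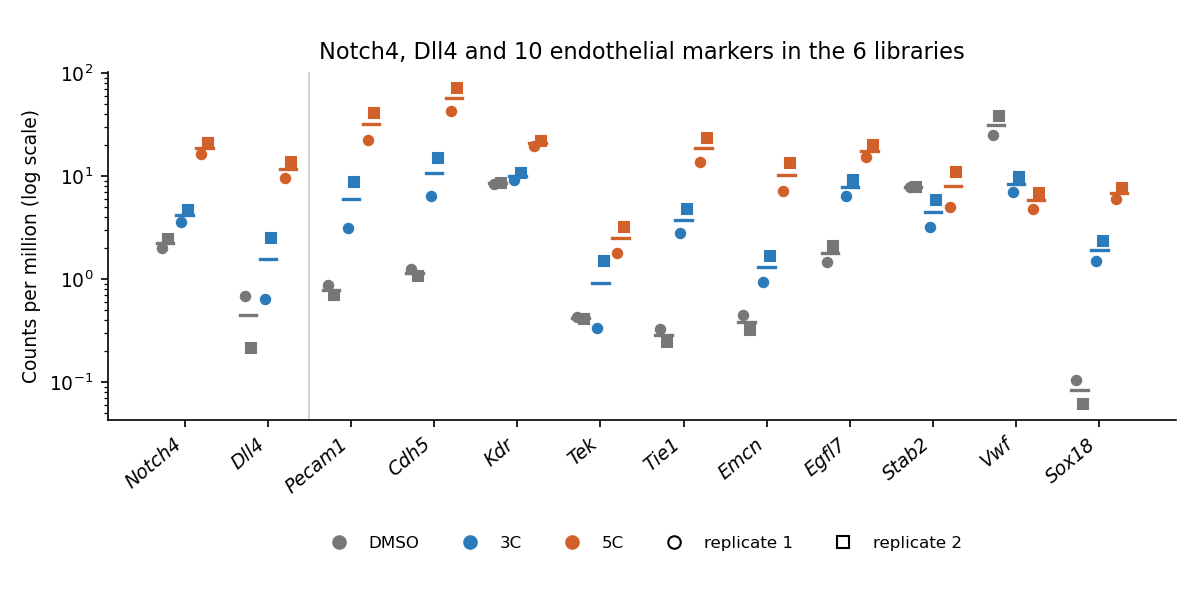
Notch4, Dll4 and the 10 endothelial markers with counts in every library, in CPM on a log axis, with a circle for replicate 1 and a square for replicate 2 of each group and a bar for the mean. Cdh5 is at most at 1.251 CPM in the DMSO libraries and at least at 43.32 CPM in the 5C libraries, while Vwf has its highest values in DMSO.

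Of 12 stellate and mural markers, 7 rose and 2 fell in 5C, 7 rose and 3 fell in 3C, and 5 were higher and 2 lower in 5C than in 3C. They summed to 6552 to 7694 CPM in DMSO, 6169 to 6208 CPM in 3C and 10340 to 10950 CPM in 5C, with none at 0. The pericyte gene Rgs5 was at 8.13 and 7.858 CPM in DMSO, 14.27 and 21.02 CPM in 3C and 9.078 and 8.737 CPM in 5C. It was highest in 3C, as Notch3 was, but did not pass in 5C against DMSO (adjusted p = 0.555). By mean, Lrat, Lum and Reln were also highest in 3C. Lrat (7.467, 32.64 and 17.38 CPM in DMSO, 3C and 5C) and Lum rose in both cocktails, as Notch3 did. The list did not share this order: Pdgfra, Col1a1, Col1a2 and Dcn were higher in 5C than in 3C. Acta2, the actin of smooth muscle and activated stellate cells, was at 336.3 and 321.1 CPM in DMSO, 137.8 and 137.7 CPM in 3C and 237.9 and 182.1 CPM in 5C, and fell in both cocktails. The receptor Pdgfrb was at 81.45 and 79.83 CPM in DMSO, 156.6 and 160.1 CPM in 3C and 146.1 and 228.6 CPM in 5C. The part of mural RNA in the values of Notch3 and Heyl was not tested.

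Of 9 cholangiocyte markers, 6 rose and 1 fell in 5C, 6 rose and 0 fell in 3C, and 0 were higher and 3 lower in 5C than in 3C. Their sum was 2922 to 3409 CPM in DMSO, 3575 to 3774 CPM in 3C and 2417 to 2722 CPM in 5C, and Sctr was at 0 in DMSO replicate 2. Most of this sum was Spp1, the marker that fell in 5C. Spp1 was at 2748 and 3232 CPM in DMSO, 3182 and 3299 CPM in 3C and 2334 and 2058 CPM in 5C. The sum thus mainly follows Spp1 and not the 6 markers that rose. Sox9, a transcription factor of biliary and progenitor cells, was at 41.99 and 43.8 CPM in DMSO, 100.5 and 112.9 CPM in 3C and 79.78 and 67.48 CPM in 5C. It was highest in 3C, as Jag1 was, but unlike Jag1 it also rose in 5C against DMSO (log2 fold change 0.80, adjusted p = 0.000231). The list did not share 1 order. By mean, Epcam, Spp1, Cldn4, Cldn7 and Cftr were also highest in 3C, while Krt7, Krt19 and Sctr were highest in 5C. The part of biliary cells in the value of Jag1 was not tested. Of 10 macrophage markers, 8 fell and 1 rose in each cocktail, and 0 were higher and 7 lower in 5C than in 3C. Their median log2 fold change against DMSO was -2.01 in 5C and -1.49 in 3C. Notch1 was at 55.96 ± 0.3464 CPM in DMSO, 58.89 ± 0.2612 CPM in 3C and 36.76 ± 2.95 CPM in 5C. The means of Notch2 were 217.8, 188.9 and 149.1 CPM in the same order. The part of macrophage RNA in these values was not tested. The 5 mesothelial markers summed to 843.4 to 1024 CPM in DMSO, 1100 to 1225 CPM in 3C and 1947 to 2008 CPM in 5C, and all 5 rose in 5C and 2 in 3C.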

How the data were processed

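Total RNA of the 6 samples was made into libraries with a NEBNext Ultra RNA kit. The submitters' processing notes name featureCounts, Subread and DESeq2 and the build GRCm39. The aligner, the annotation, the use of strand and the tool behind the FPKM are not given in the sources used here. The authors deposited estimated counts per gene for 52323 genes, whole and not normalized, and a second table of FPKM, scaled by the authors for gene length and library total, for 52327 genes (52257 shared). Among low estimated counts, 4 (4816 entries) outnumbered 3 (3121) and 5 (2303), so how many counts 1 fragment gave is unknown. Depth was 65916573 to 69245895 counts per library, and floors cover counting error only.

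Groups followed the labels. The counts were tested in edgeR 4.0.16 with its quasi-likelihood F test (R 4.3.3; TMM, filterByExpr on the group, robust fit), with all 6 libraries in 1 model of 3 groups (3 residual degrees of freedom, common biological coefficient of variation 18.4%) and Benjamini-Hochberg adjustment over 19135 genes. The script was tested on simulated data, where the share of false calls lay somewhat above the nominal one. CPM are counts scaled to a library total of 1000000. GENCODE vM39, an annotation of GRCm39, gave positions for 51722 of the gene IDs. Alternatives were RLE and upper quartile scaling, filters of 1 and 10 counts, DESeq2 1.42.0, 2-group fits, a replicate block, limits on the log2 fold change of 0.5 and 1, limma 3.58.1 on log2(FPKM + 1) and log2(FPKM + 0.1), counts divided by 4 and leaving out each library. A fold change on the log2(FPKM + pseudocount) scale understates the change of low genes.

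The 10 genes and the lists were chosen with earlier results of these data known. All 10 are named, and of the other pathway genes those 8 per comparison with the largest absolute log2 fold change among those that passed with a mean of at least 1 CPM. One cholangiocyte marker is not reported here and was left out of its list. Markers are given beside results only, and those named, Rbpj, Rfng and the motifs CACNAG and CACGTG were chosen after values were seen. Promoters of 17 genes were sought in the RefSeq table, which held 12 of them (14 promoters, all matched in GRCm39).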

Additional observations from a re-analysis of the deposited data

How the results depend on the processing

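Of 540 values of the 10 genes (30 log2 fold changes under 18 alternatives), 511 kept their direction and their side of the threshold, 17 lost the call, 9 gained it and 3 changed sign. Of 20 calls, 12 held under all alternatives, which include the limits on the log2 fold change. Lost only to the limit of 1 were Jag1 in 3C against DMSO and Notch2 in 5C against DMSO. The same held for Notch1 and Notch3 in 5C, against DMSO and against 3C. The sign changes were among values between 5C and 3C that passed in no fit: leaving out 1 library, Heyl, at -0.08, ranged from -0.6661 (without 5C replicate 2) to 0.3289 (without 5C replicate 1), with 0.1058 without 3C replicate 2, and Hes1, at 0.09, from -0.0215 (without 5C replicate 1) to 0.1781. With an absolute log2 fold change above 1, 5 of the 10 genes remained called in 5C against DMSO and 3 in 5C against 3C, of the other pathway genes 8, 4 and 0 (5C and 3C against DMSO, 5C against 3C), and of all genes 2242, 1809 and 576. With a limit of 0.5, the other pathway genes gave 12 and 10 calls against DMSO, and all genes 1615 in 5C against 3C. With limma on either FPKM scale, 16 other pathway genes passed in 5C against DMSO. Leaving out 1 library, the 10 genes gave 8 to 10, 6 to 8 and 4 to 6 calls in the 3 comparisons, and the other pathway genes 14 to 19, 10 to 22 and 2 to 6. The lowest of these came without 5C replicate 1 (14), without 3C replicate 1 (10) and without 3C replicate 2 (2). Without DMSO replicate 2 the first was 16, and without 3C replicate 2 the second was 12. All genes gave 2944 to 4503 calls in 3C against DMSO, lowest without 3C replicate 1 and at 2979 without 3C replicate 2. In 5C against 3C they gave 1062 to 2812, lowest without 3C replicate 1, at 1087 without 3C replicate 2, 1612 without 5C replicate 1 and 1337 without 5C replicate 2. Each such fit has fewer samples, and a lone sample was assumed to vary like the other groups. Deviations of libraries with the same replicate number correlated by -0.031, 0.001 and 0.016, so the numbers were not taken as pairs. The replicate block changed no call of the 10 genes (8, 7 and 5) and gave 22, 24 and 6 other pathway genes. With 2 libraries a group, genes at about 1 CPM are the least certain.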
